A study of Homo sapiens with 8 samples.

Results

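HSF1, HSF2, HSP90AA1, HSP90AB1, DNAJB1, DNAJB4, BAG3, HSPB1, HSPB8 and HSPD1 are 10 genes of the heat shock response: heat shock factors, cytosolic HSP90 chaperones, HSP40 (J-domain) co-chaperones, a BAG-domain co-chaperone, small heat shock proteins and the mitochondrial chaperonin. They are a list of names that was drawn up with earlier results of these data known, and they were 10 of the 36715 genes in the count table. A filter on low counts kept 9 of the 10 among 14850 tested genes, and HSPB8 did not pass it. RNA was sequenced from MDA-MB-231, a human triple-negative breast cancer line of mesenchymal basal type. The 4 groups of 2 libraries, A and B, were cells given DMSO vehicle for 12 h, EMD37 at 0.5 µM for 12 h, DMSO vehicle for 24 h, and EMD37 at 0.5 µM for 24 h. The title of the series names endoplasmic reticulum (ER) stress as the effect of EMD37, and the comparisons asked how each gene differed between EMD37 and vehicle at each time.

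Heat shock factor HSF1 is held inactive in unstressed cells by chaperones, and when misfolded protein occupies those chaperones it forms trimers and binds heat shock elements, runs of inverted GAA units, upstream of chaperone genes. HSP40 proteins pass unfolded clients to HSP70 and stimulate its ATPase, BAG3 releases clients from HSP70 and links it to selective autophagy, small heat shock proteins hold unfolded protein without using ATP, and HSP90 completes the folding of kinases and steroid receptors. HSF1 activity is controlled largely at the protein level, which RNA-seq does not measure.

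Libraries held 8994977 to 11437813 counted reads, and replicate correlations ran from 0.988 to 0.992. The labels did not say whether A and B were separate cultures, so each p-value is set against a spread that may be technical. In bulk RNA, fewer cells of one state and less RNA per cell cannot be told apart. Of the defining markers, the 5 of mesenchymal basal lines summed to 4748 to 6306 CPM (read counts scaled to library size), with 0 of them at 0 reads. The 8 luminal markers summed to 15.2 to 21.4 CPM, the 6 leukocyte markers to 0.965 to 2.69 and the 5 fibroblast markers to 0.915 to 3.32. The mesenchymal sum was lower with EMD37, at 5463 to 5507 against 5976 to 6020 CPM at 12 h and 4748 to 4984 against 5950 to 6306 CPM at 24 h, and its part in the results was not tested. The 5 markers did not move alike. Mean EGFR was 241.5 CPM in vehicle and 281.6 with EMD37 at 12 h, and 228.8 and 420.3 CPM at 24 h. VIM, CD44, CAV1 and AXL had lower means with EMD37 at both times. Low reads were also seen for ACTB, which averaged 8.09 CPM, and B2M, at 20.0 CPM, against 4671 CPM for ACTG1, and the reason was not tested. BAG3, HSPB1 and HSPB8 had few reads in the same way. Their low levels are what was counted, and whether the cells held so little of these RNAs was not tested. Vehicle 24 h B and EMD37 24 h A stood apart from the others in 1 respect. Genes beyond the end of this copy of the count table, recovered from the normalized table, took 10.6% and 11.7% of their reads, against 8.26% to 9.57% in the other 6 libraries.

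Sequences around annotated starts are shown because 3 of the genes that rose hold the letters of a full heat shock element upstream of 1 such start. RefSeq windows on GRCh38.p14, from 250 bases before to 50 bases after an annotated start, were found for 9 of the 10 genes. The search was for alternating TTC and GAA units spaced by any 2 bases. A 2-unit match reads TTCNNGAA or GAANNTTC, each its own reverse complement, so both strands are covered. A 3-unit match adds 1 more alternating unit on the end and therefore contains overlapping 2-unit matches. Of all 35116 windows, 0.49% held a 3-unit match and 13.5% a 2-unit match. These shares are per window, and the 9 genes had 17 windows between them. HSP90AA1, HSP90AB1 and HSPD1 each held a 3-unit match at 1 of their annotated starts. In each of them that start lies inside the annotated span of the gene. The windows of their earlier starts held no 2-unit match. DNAJB1, DNAJB4, HSPB1 and HSPB8 held 2-unit matches only, and HSF2 and BAG3 held neither in these windows. In the runs below capitals mark the longest match found: 3 units in HSP90AA1, HSP90AB1 and HSPD1, where 2 overlapping matches join in HSPD1, and 2 units in DNAJB1 and DNAJB4. They lie at chr14:102086995-102087294 on the minus strand for HSP90AA1, chr6:44247693-44247992 on the plus strand for HSP90AB1 and chr2:197499791-197500090 on the minus strand for HSPD1. Those of the J-domain genes lie at chr19:14518348-14518647 on the minus strand for DNAJB1 and chr1:78004689-78004988 on the plus strand for DNAJB4.
HSP90AA1: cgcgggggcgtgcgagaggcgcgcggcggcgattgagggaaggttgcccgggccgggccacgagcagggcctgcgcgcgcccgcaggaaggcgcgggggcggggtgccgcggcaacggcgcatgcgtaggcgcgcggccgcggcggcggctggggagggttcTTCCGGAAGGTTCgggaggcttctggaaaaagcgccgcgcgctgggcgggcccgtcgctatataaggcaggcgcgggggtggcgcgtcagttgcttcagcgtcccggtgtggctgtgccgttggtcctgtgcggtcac
HSP90AB1: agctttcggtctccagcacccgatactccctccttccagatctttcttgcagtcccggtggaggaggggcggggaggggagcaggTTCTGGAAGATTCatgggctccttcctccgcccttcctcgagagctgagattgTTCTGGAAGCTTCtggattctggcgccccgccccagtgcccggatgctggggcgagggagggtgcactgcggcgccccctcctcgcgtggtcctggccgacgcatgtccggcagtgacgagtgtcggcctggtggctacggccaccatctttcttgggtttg
HSPD1: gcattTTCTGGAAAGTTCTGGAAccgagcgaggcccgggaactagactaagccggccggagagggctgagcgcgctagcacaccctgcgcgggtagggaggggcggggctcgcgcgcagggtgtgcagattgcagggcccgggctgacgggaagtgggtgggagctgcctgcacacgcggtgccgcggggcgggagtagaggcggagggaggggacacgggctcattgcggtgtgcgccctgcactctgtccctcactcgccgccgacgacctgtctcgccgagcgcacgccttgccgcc
DNAJB1: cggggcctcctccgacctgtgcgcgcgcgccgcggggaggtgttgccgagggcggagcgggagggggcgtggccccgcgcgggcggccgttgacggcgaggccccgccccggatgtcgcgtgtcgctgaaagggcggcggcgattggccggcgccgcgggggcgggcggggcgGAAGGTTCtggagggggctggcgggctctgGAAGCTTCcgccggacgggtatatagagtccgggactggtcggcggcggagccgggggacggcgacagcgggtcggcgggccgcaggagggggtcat
DNAJB4: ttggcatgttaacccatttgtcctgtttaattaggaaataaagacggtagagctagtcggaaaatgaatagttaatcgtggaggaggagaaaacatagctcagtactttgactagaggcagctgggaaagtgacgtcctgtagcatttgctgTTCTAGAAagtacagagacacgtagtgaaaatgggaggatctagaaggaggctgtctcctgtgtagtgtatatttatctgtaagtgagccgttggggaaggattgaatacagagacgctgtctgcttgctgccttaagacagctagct
The HSP90AB1 window holds 2 separate 3-unit matches, the first beginning 165 bases before the start. The HSP90AA1 match begins 88 bases before its start and the first DNAJB1 match 77 bases before. The TATA box core, searched as TATAAA in the direction of the gene, was in 7.33% of all windows and in 1 of the windows of these genes, that of HSF2. The HSP90AA1 and DNAJB1 runs hold near variants, tatataa and tatata, that this exact string does not match, so nothing follows about a TATA box there. A match describes letters and was not tested as a bound site. The HSP70 genes whose proteins work with these J-domain proteins were searched as well: HSPA6 held 1 and HSPA8 held 2 of the 3-unit matches, and HSPA1A and HSPA1B held a 2-unit match each. HSPH1 held neither.

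EMD37 was followed by higher RNA of chaperone genes at both times, and all 9 tested genes had estimates above 0. At 12 h, DNAJB1, DNAJB4, HSP90AA1 and HSPD1 were called higher at a Benjamini-Hochberg adjusted p below 0.05 in the quasi-likelihood test of edgeR, which is 4 of 9 tested genes beside 5.27% of all tested genes called higher. At 24 h, HSF2 and HSP90AB1 joined them, giving 6 of 9 beside 19.6% of all genes called higher. The median log2 fold change of the 9 was 0.53 at 12 h and 0.69 at 24 h, against -0.006 and -0.033 over all tested genes. Both EMD37 libraries lay above both vehicle libraries for 8 of the 9 genes at 12 h, where 26.5% of all genes did so, and for 7 of 9 at 24 h, where 31.4% did. At both times 0 of the 9 were called lower, also by DESeq2 and at an unadjusted edgeR p below 0.05, while 3.43% of all genes were called lower at 12 h and 21.1% at 24 h. HSF1, BAG3 and HSPB1 were not called at either time. Leaving out vehicle 24 h B and EMD37 24 h A was chosen after seeing the data and left 1 library in each 24 h group. The log2 difference of HSP90AB1 at 12 h was 0.245 with all libraries and 0.246 without them. That of HSF1 at 24 h was 0.31 with all libraries and 0.51 without them.

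**Figure D1:**
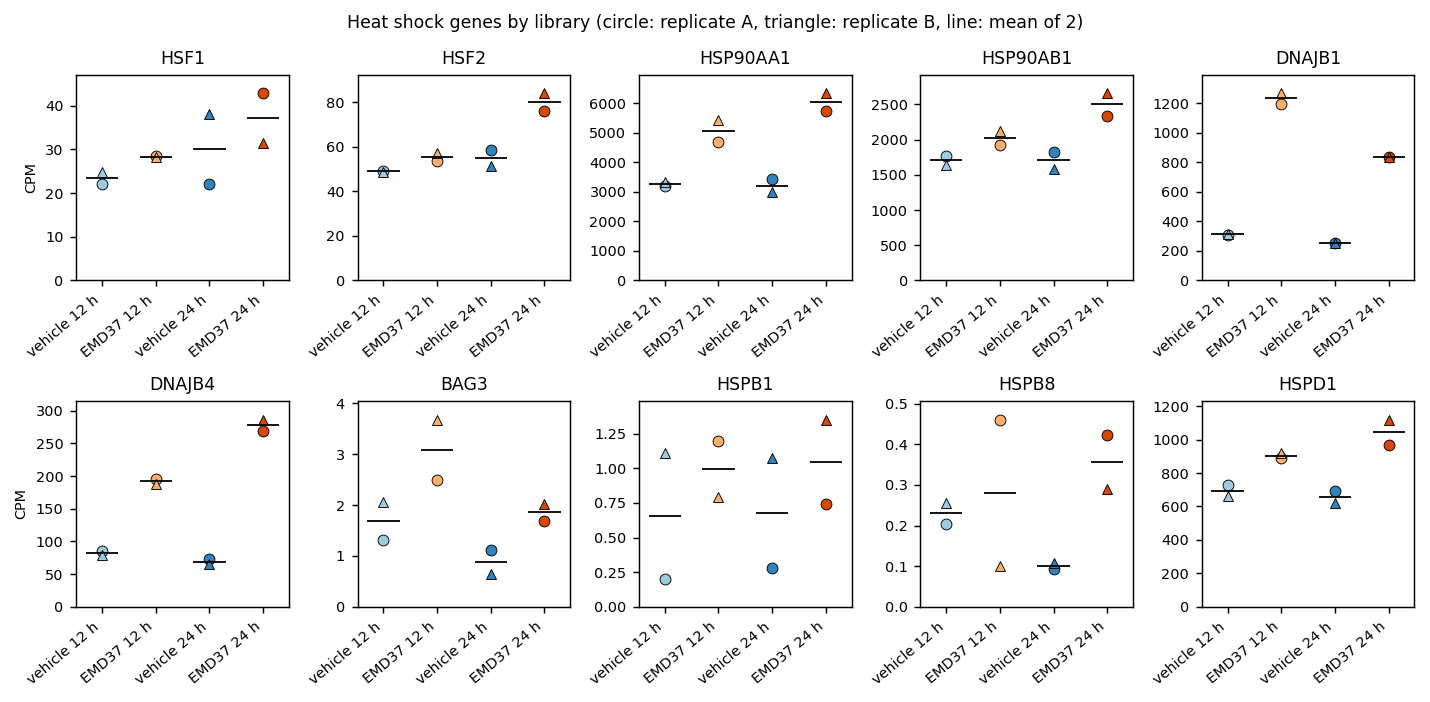
CPM (vertical axis, linear from 0, scaled to each gene) of the 10 genes in the 8 libraries, with circles for replicate A, triangles for replicate B and a line at the mean of 2. DNAJB1 and DNAJB4 in EMD37 libraries sit far above vehicle, and HSF1 at 24 h overlaps between groups.

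**Figure D2:**
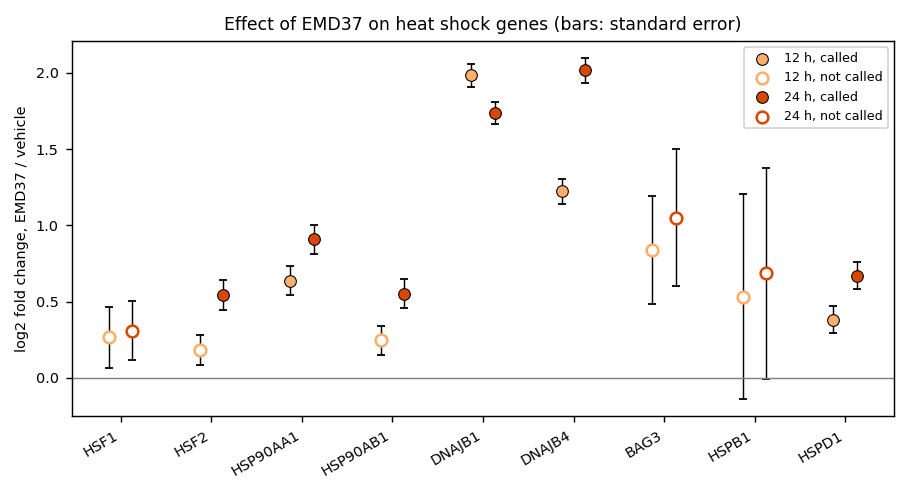
Log2 fold change of EMD37 over vehicle (vertical axis) for the 9 tested genes at 12 h and 24 h, with bars for the standard error, filled where called at an adjusted p below 0.05. DNAJB1 and DNAJB4 lie highest at both times, and the bars of BAG3 and HSPB1, which rest on few reads, are wide.

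HSF1, the main stress-activated factor (ENSG00000185122, hg38 chromosome 8, 144291591 to 144314722, plus strand), was not called. It measured 22.1 and 24.9 CPM in vehicle 12 h A and B, 28.5 and 28.2 CPM with EMD37 at 12 h, 22.1 and 38.1 CPM in vehicle at 24 h, and 42.9 and 31.5 CPM with EMD37 at 24 h. The groups did not overlap at 12 h and overlapped at 24 h, where vehicle B was above EMD37 B. The log2 difference was 0.27 (standard error 0.20, adjusted p = 0.48 by edgeR) at 12 h and 0.31 (standard error 0.20, adjusted p = 0.224) at 24 h. The libraries with the highest HSF1 values, EMD37 24 h A and vehicle 24 h B, are those with the largest shares of recovered reads, and the part of that in the HSF1 values was not tested. Without vehicle 24 h B, HSF1 at 24 h was called higher by log2 0.74 (edgeR adjusted p = 9.99e-06), and without both libraries by 0.51 (adjusted p = 0.0107).

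HSF2, a second factor that can pair with HSF1 (ENSG00000025156, chromosome 6, 122399546 to 122433119, plus strand), was called higher at 24 h and not at 12 h. It measured 49.1 and 48.8 CPM in vehicle and 53.8 and 57.1 with EMD37 at 12 h, then 58.8 and 51.3 CPM in vehicle and 76.2 and 84.1 with EMD37 at 24 h. Both EMD37 libraries were above both vehicle libraries at each time. The difference was log2 0.18 (standard error 0.10, edgeR adjusted p = 0.305) at 12 h, and HSF2 rose 1.46-fold, log2 0.54 (standard error 0.10, adjusted p = 0.000297), at 24 h. The difference between these effects, log2 0.36, was not called (adjusted p = 0.0899).

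HSP90AA1, the stress-inducible cytosolic HSP90 (ENSG00000080824, chromosome 14, 102080738 to 102139699, minus strand), rose at both times. It measured 3195 and 3320 CPM in vehicle and 4697 and 5431 CPM with EMD37 at 12 h, and 3434 and 2989 CPM in vehicle and 5721 and 6331 CPM with EMD37 at 24 h. The groups did not overlap at either time. It rose 1.56-fold, log2 0.64 (standard error 0.10, edgeR adjusted p = 0.000307), at 12 h and 1.88-fold, log2 0.91 (standard error 0.10, adjusted p = 1.39e-06), at 24 h. HSP90AB1, the cytosolic HSP90 that is abundant without stress (ENSG00000096384, chromosome 6, 44246166 to 44253888, plus strand), measured 1771 and 1639 CPM in vehicle and 1917 and 2123 with EMD37 at 12 h. At 24 h it measured 1825 and 1582 CPM in vehicle and 2342 and 2658 with EMD37. Its groups did not overlap either, and it rose 1.47-fold, log2 0.55 (standard error 0.09, edgeR adjusted p = 0.000179), at 24 h. At 12 h its log2 difference of 0.25 (standard error 0.09) was not called (adjusted p = 0.127), but it was called in a fit of the 12 h libraries alone (adjusted p = 0.00647) and without vehicle 24 h A (0.0265) or B (0.0258).

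Per kilobase of annotated exon, HSP90AA1 and HSP90AB1 were nearly level in vehicle cells, and HSP90AA1 stood higher with EMD37. That length sums all annotated exons of a gene, 5248 bases for HSP90AA1 and 2980 for HSP90AB1, and which exons were used was not tested. The level of the ratio depends on these lengths, and its change with EMD37 does not depend on the lengths of HSP90AA1 and HSP90AB1. The ratio of their reads per kilobase was 1.02 and 1.15 in vehicle 12 h A and B, 1.39 and 1.45 with EMD37 at 12 h, 1.07 in both vehicle libraries at 24 h, and 1.39 and 1.35 with EMD37 at 24 h. All 4 EMD37 libraries were above all 4 vehicle libraries. The mean log2 difference was 0.37, with a two-sided exact permutation p within times of 0.0556, the smallest that 36 regroupings allow, and 0.0834 adjusted over 3 ratios. Pseudogenes can share reads with these genes, and their reads came to 0.259% to 0.355% of those of HSP90AA1 and 0.700% to 0.819% of those of HSP90AB1. HSP90AA2P, a pseudogene of HSP90AA1, rose by log2 0.94 at 12 h (edgeR adjusted p = 0.00155) and 1.09 at 24 h (adjusted p = 7.92e-05), and reads of the parent and the copy may be split between them.

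**Figure D3:**
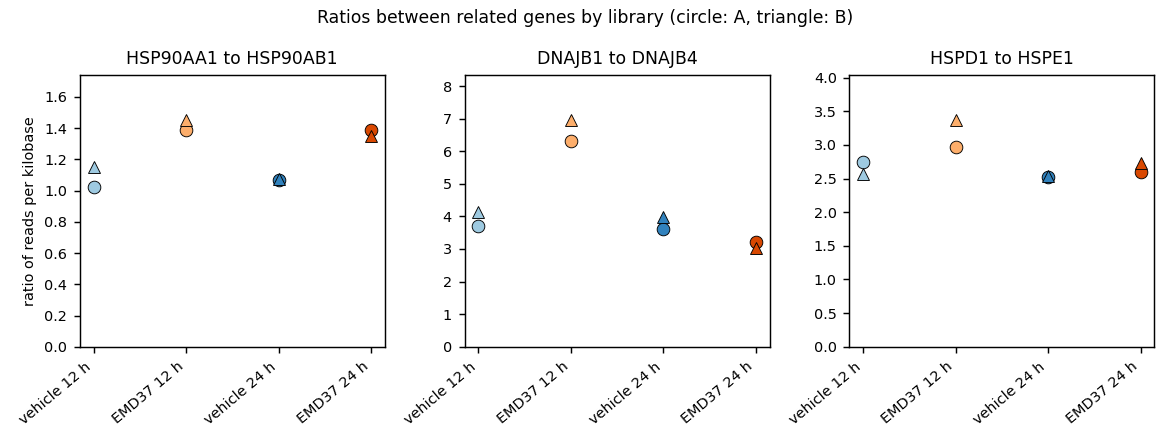
Ratio of reads per kilobase (vertical axis, from 0) between pairs of related genes in each library, with circles for replicate A and triangles for B. HSP90AA1 to HSP90AB1 runs from 1.02 to 1.15 in vehicle and from 1.35 to 1.45 with EMD37, and DNAJB1 to DNAJB4 is highest with EMD37 at 12 h.

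DNAJB1, the main stress-inducible HSP40 and a partner of HSP70 (ENSG00000132002, chromosome 19, 14514770 to 14529770, minus strand), had the largest rise of the 9 genes at 12 h. It measured 307 and 317 CPM in vehicle and 1199 and 1269 CPM with EMD37 at 12 h, and 253 and 251 CPM in vehicle and 839.6 and 840.3 CPM with EMD37 at 24 h. Every EMD37 library was above every vehicle library. The rise was 3.95-fold, log2 1.98 (standard error 0.07, edgeR adjusted p = 1.33e-11), at 12 h and 3.33-fold, log2 1.74 (standard error 0.07, adjusted p = 2.96e-11), at 24 h. DNAJB4, another HSP40 of the cytosol (ENSG00000162616, chromosome 1, 77979175 to 78017964, plus strand), measured 85.3 and 79.1 CPM in vehicle and 196 and 188 CPM with EMD37 at 12 h. At 24 h it measured 72.5 and 64.8 CPM in vehicle and 269.5 and 286 CPM with EMD37. Its groups were also fully separate, and it rose 2.34-fold, log2 1.23 (standard error 0.08, edgeR adjusted p = 2.08e-08), at 12 h and 4.04-fold, log2 2.02 (standard error 0.08, adjusted p = 1.81e-11), at 24 h.

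DNAJB4 was the 1 gene of the 9 called for a difference between the 2 times: its 24 h effect exceeded the 12 h effect by log2 0.79 (standard error 0.12, edgeR adjusted p = 0.000207). Over all genes, 7.96% were called in this direction and 7.94% in the other. The DNAJB1 effect was smaller at 24 h by log2 0.25, which was not called (difference -0.25, standard error 0.10, adjusted p = 0.116). The per-length ratio of DNAJB1 to DNAJB4 was 3.71 and 4.13 in vehicle 12 h A and B, 6.30 and 6.96 with EMD37 at 12 h, 3.60 and 3.98 in vehicle at 24 h, and 3.21 and 3.02 with EMD37 at 24 h. It was above vehicle at 12 h and below it at 24 h, and over both times the mean log2 difference was 0.24 (two-sided exact permutation p = 0.333 within times, 0.333 adjusted over 3 ratios). Without vehicle 24 h A, 5 genes were called in this interaction, with HSF2, HSP90AA1, HSP90AB1 and HSPD1 added, so the count rests on that library. The interaction uses the same libraries as both treatment comparisons.

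BAG3, which links HSP70 to selective autophagy (ENSG00000151929, chromosome 10, 119651370 to 119677819, plus strand), was covered by few reads. It had 13 and 24 reads in vehicle and 27 and 37 with EMD37 at 12 h, and 12 and 6 reads in vehicle and 16 and 21 with EMD37 at 24 h. EMD37 libraries were above vehicle at both times. The log2 difference was 0.84 (standard error 0.36, edgeR adjusted p = 0.17) at 12 h and 1.05 (standard error 0.45, adjusted p = 0.072) at 24 h, neither called. Without vehicle 24 h A the 24 h value was 1.54 (adjusted p = 0.0445).

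HSPB1, the small heat shock protein HSP27 (ENSG00000106211, chromosome 7, 76302544 to 76304295, plus strand), had 2 and 13 reads in vehicle and 13 and 8 with EMD37 at 12 h, and 3 and 10 reads in vehicle and 7 and 14 with EMD37 at 24 h. Its groups overlapped at both times. Differences of log2 0.53 (standard error 0.67, edgeR adjusted p = 0.704) at 12 h and 0.69 (standard error 0.69, adjusted p = 0.464) at 24 h were within the spread between libraries. HSPB8, a small heat shock protein that binds BAG3 (ENSG00000152137, chromosome 12, 119178642 to 119221131, plus strand), had 2 and 3 reads in vehicle and 5 and 1 with EMD37 at 12 h, and 1 and 1 in vehicle and 4 and 3 with EMD37 at 24 h. The groups overlapped at 12 h, and at 24 h both EMD37 libraries were above both vehicle libraries. A count of 0 would allow up to 3 reads, or 0.257 to 0.323 CPM by library, so a fall of HSPB8 was not detectable at this depth, and the difference at 24 h was not tested. Pseudogene reads ran from 0% to 50% of those of HSPB1 by library, and HSPB1 reads may be shared with them. No exonic base of BAG3, HSPB1 or HSPB8 lies in an exon of another annotated gene. Of 7 other small heat shock protein genes, 6 were in the table and 0 had enough reads for a test.

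HSPD1, the mitochondrial chaperonin HSP60 (ENSG00000144381, chromosome 2, 197486581 to 197516737, minus strand), measured 726.5 and 663 CPM in vehicle and 892 and 917 CPM with EMD37 at 12 h, and 695 and 619.9 CPM in vehicle and 970.5 and 1120 CPM with EMD37 at 24 h. Both EMD37 libraries were higher at each time. It rose 1.30-fold, log2 0.38 (standard error 0.09, edgeR adjusted p = 0.0113), at 12 h and 1.59-fold, log2 0.67 (standard error 0.09, adjusted p = 1.48e-05), at 24 h. The 12 h call was lost without vehicle 12 h B (adjusted p = 0.193), EMD37 12 h A (0.0821) or EMD37 12 h B (0.159). HSPE1, the HSP10 lid of the same chaperonin, is transcribed in the opposite direction from a neighbouring start. Its RefSeq window, chr2:197500129-197500428, overlaps another window of HSPD1 and holds no 2-unit match. The 3-unit match of HSPD1 lies near the end of chr2:197499791-197500090 that faces HSPE1. It is between that HSPD1 start and the HSPE1 start, and the HSPE1 window ends before reaching it. HSPE1 differed by log2 0.13 (standard error 0.09, edgeR adjusted p = 0.403) at 12 h and rose by 0.59 (standard error 0.09, adjusted p = 3.32e-05) at 24 h. The per-length ratio of HSPD1 to HSPE1 ran from 2.53 to 2.75 in vehicle and from 2.60 to 3.37 with EMD37, with a two-sided exact permutation p of 0.0556 within times, again the smallest possible, and 0.0834 adjusted. HSPD1 pseudogenes carried 0.712% to 1.26% as many reads as HSPD1.

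In vehicle cells between 12 h and 24 h, DNAJB1 was the 1 gene of 9 called, and it was lower, by log2 -0.31 (standard error 0.07, edgeR adjusted p = 0.0242), beside 3.25% of all genes called lower. The call was lost without vehicle 12 h A (adjusted p = 0.195), vehicle 12 h B (0.161), EMD37 12 h A (0.0516), EMD37 12 h B (0.0652) or vehicle 24 h B (0.0898), and in a fit of the 4 vehicle libraries alone (0.0922). DNAJB4 differed by log2 -0.26 (adjusted p = 0.0861) and HSF1 by 0.35 (adjusted p = 0.323). Without vehicle 24 h A, which leaves 1 library in that group, the differences were -0.355 for DNAJB4 and 0.679 for HSF1. Both vehicle groups also serve as the controls of the treatment comparisons.

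Levels can be compared between genes only per length, here in RPKM (CPM per kilobase of exon). The length sums all annotated exons of a gene, so the order depends on which exons were used, which was not tested. In vehicle at 12 h the order was HSP90AA1 at 621 ± 16.8 RPKM (SD, n = 2), HSP90AB1 at 572 ± 31.3, HSPD1 at 164 ± 10.6, DNAJB1 at 85.0 ± 1.87, DNAJB4 at 21.7 ± 1.15, HSF2 at 18.1 ± 0.066 and HSF1 at 4.43 ± 0.364. BAG3 at 0.614 ± 0.188 and HSPB1 at 0.402 ± 0.393 followed with overlapping libraries, and HSPB8 was last at 0.0804 ± 0.0132. Whether the low counts of BAG3, HSPB1 and HSPB8 reflect the RNA in the cells was not tested. With EMD37 at 12 h DNAJB1, at 336 ± 13.5, stood above HSPD1, at 213 ± 4.25, with no overlap. At 24 h with EMD37 DNAJB1 at 229 ± 0.131 and HSPD1 at 246 ± 24.9 overlapped, and HSP90AA1 and HSP90AB1 led at 1148 ± 82.1 and 839 ± 75.0. HSP90AA1 and HSP90AB1 overlapped in vehicle at 24 h, as did HSF2 and DNAJB4.

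For the gene groups that follow, the shares of all tested genes are 5.27% called higher and 3.43% lower at 12 h, and 19.6% higher and 21.1% lower at 24 h. The groups overlap: CHORDC1, FKBP4, HSP90B1, HSPA4L, STUB1 and TRAP1 are each listed in more than a single group. Of the HSP70 genes whose proteins work with DNAJB1 and DNAJB4, HSPA6, HSPA1A and HSPA1B had the largest rises. Of 10 cytosolic HSP70 and HSP110 genes, 4 were called higher at 12 h and 7 at 24 h, with 0 lower (0 and 1 at an unadjusted edgeR p below 0.05, 0 by DESeq2) and medians of log2 0.26 and 0.59. HSPA6, an HSP70 nearly silent without stress, went from 3.68 ± 0.603 CPM (SD, n = 2) to 106 ± 8.76 CPM at 12 h, log2 4.83 (edgeR adjusted p = 4.01e-13), and from 1.83 ± 0.297 to 81.2 ± 0.296 CPM at 24 h, log2 5.45 (adjusted p = 4.45e-13). HSPA1A rose by 3.78 and 4.21 and HSPA1B by 3.32 and 3.83 at 12 h and 24 h, and reads of these near-identical genes may be divided between them. HSPH1, an exchange factor of HSP70, rose by 0.82 and 1.26. HSPA8, the constitutive HSP70, rose by 0.61 at 24 h, and its 0.29 at 12 h was not called (adjusted p = 0.139) but was called with only the 12 h libraries (0.00214), with no filter (0.00435), and without vehicle 24 h A (0.00897) or B (0.00856).

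Among 17 other cytosolic J-domain genes, 2 were called higher at 12 h (5.27% of all genes were), and 5 higher and 2 lower at 24 h (19.6% and 21.1% of all genes), with medians of log2 0.14 and 0.18. DNAJB6, which suppresses aggregation, rose by 0.30 and 0.53, and at 24 h DNAJB2 rose by 1.18 and DNAJA1 by 0.70. At 12 h these last genes were not called in the fit of all 8 libraries but were with only the 12 h libraries (edgeR adjusted p = 0.0139 for DNAJB2 and 0.00967 for DNAJA1), and without vehicle 24 h A (0.0201 and 0.0368) or B (0.0198 and 0.036). DNAJC9, a histone co-chaperone, fell by 0.54 on the log2 scale at 24 h. DNAJB5 turned direction: it rose from 14.4 ± 1.22 to 36.1 ± 3.99 CPM (SD, n = 2) at 12 h, log2 1.33 (edgeR adjusted p = 4.96e-06), and fell from 18.3 ± 0.431 to 12.6 ± 0.0112 CPM at 24 h, log2 -0.54 (adjusted p = 0.00781; 0.0515 without EMD37 24 h A). The 12 h call of DNAJB6 was lost without any 1 of the 12 h libraries (adjusted p from 0.0801 to 0.225).

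Of 24 tested HSP90 paralogues and co-chaperones, 6 were called higher and 0 lower at 12 h (0 lower also by DESeq2 and at an unadjusted edgeR p below 0.05), and 10 higher and 3 lower at 24 h, with medians of log2 0.18 and 0.13. HSP90B1, the ER paralogue GRP94, rose by 1.71 and 1.34. AHSA1, which stimulates the HSP90 ATPase, rose by 0.61 and 0.84, CHORDC1 by 0.54 and 0.81, and FNIP1, which slows the ATPase, by 0.42 and 1.49. FKBP5, an immunophilin of steroid receptor complexes, fell, by log2 -1.12, at 24 h, from 39.5 ± 5.69 to 18.1 ± 4.84 CPM (SD, n = 2), while TOMM70 and CDC37L1 were called lower by less, at -0.25 and -0.44. The CDC37L1 call was lost in all 15 alternatives (for example 0.16 by DESeq2), that of TOMM70 without vehicle 24 h B (adjusted p = 0.0755) or EMD37 24 h A (0.139), and the 12 h call of FNIP1 without EMD37 12 h B (0.0716). TRAP1, the mitochondrial paralogue, was not called, at -0.11 and -0.25.

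Of 12 tested HSF family members and regulators, 1 was called higher at 12 h (0 by DESeq2), beside 5.27% of all genes, and 1 higher and 1 lower at 24 h, where 19.6% and 21.1% of all genes were, with medians of log2 0.14 and 0.007. VCP, an ATPase that extracts ubiquitinated protein, rose by 0.63 at 12 h, a call lost without any 1 of the 12 h libraries (adjusted p from 0.0727 to 0.163). SIRT1, the deacetylase that prolongs HSF1 binding, rose by 0.89 at 24 h, and RPA1, a partner of HSF1 at chromatin, fell by 0.54 on the log2 scale. A further list held 12 heat shock responsive genes, of which CHORDC1, FKBP4 and HSPA4L are also counted in groups above. Of these 12, 7 were called higher at 12 h and 9 at 24 h, with medians of 0.32 and 0.61. At both times 0 were called lower, also by DESeq2 and at an unadjusted edgeR p below 0.05. ZFAND2A rose by 1.53 and 1.46, and JMJD6 by 1.08 at 24 h. JMJD6 at 12 h was not called in the fit of all 8 libraries but was with only the 12 h libraries (edgeR adjusted p = 0.00333) and without vehicle 24 h A (0.0077) or B (0.00732).

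In the BAG family other than BAG3, 0 of 5 genes were called at 12 h in the fit of all 8 libraries by edgeR or DESeq2 (1 higher and 2 lower at an unadjusted edgeR p below 0.05). With only the 12 h libraries edgeR called BAG6 higher (adjusted p = 0.00244) and BAG2 lower (0.0193), as it did without vehicle 24 h A (0.00554 and 0.0468) or B (0.00534 and 0.0457). At 24 h BAG1 rose by log2 0.65 and BAG6 by 0.52 while BAG2 fell by 0.28, a call lost without vehicle 24 h A (adjusted p = 0.0797) or EMD37 24 h A (0.0723). Of 15 mitochondrial chaperones and proteases, 3 were called higher at 12 h, and 5 higher and 2 lower at 24 h, with medians of log2 0.09 and 0.22. HSPA9, the mitochondrial HSP70, rose by 0.32 and 0.81, the protease LONP1 by 0.59 and 1.04 and the exchange factor GRPEL2 by 0.35 and 0.68, while DNAJA3 fell by 0.42 and SPG7 by 0.24 at 24 h. The 12 h calls of HSPA9, LONP1 and GRPEL2 were lost without any 1 of the 12 h libraries (adjusted p from 0.0611 to 0.246). The call of SPG7 was lost in 14 of 15 alternatives, and that of DNAJA3 without vehicle 24 h B (0.189) or EMD37 24 h B (0.0929). Of 14 tested genes of the cytosolic chaperonin TRiC and its partner prefoldin, 0 were called at 12 h in the fit of all 8 libraries by edgeR or DESeq2 (1 higher at an unadjusted edgeR p below 0.05), and 2 higher and 3 lower at 24 h, beside 19.6% and 21.1% of all genes. TCP1 at 12 h was called higher by edgeR with only the 12 h libraries (adjusted p = 0.00793) and without vehicle 24 h A (0.034) or B (0.0331). At 24 h TCP1 rose by 0.35 and PFDN2 by 0.48, and PFDN1 fell by 0.38 and PFDN5 by 0.37. Calls were lost without EMD37 24 h B for TCP1 (adjusted p = 0.146) and PFDN2 (0.205), and for PFDN5 without vehicle 24 h A (0.0652) or EMD37 24 h A (0.0941). The 5 ER stress reference genes were all called higher at both times, with medians of log2 3.32 and 2.31.

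**Figure D4:**
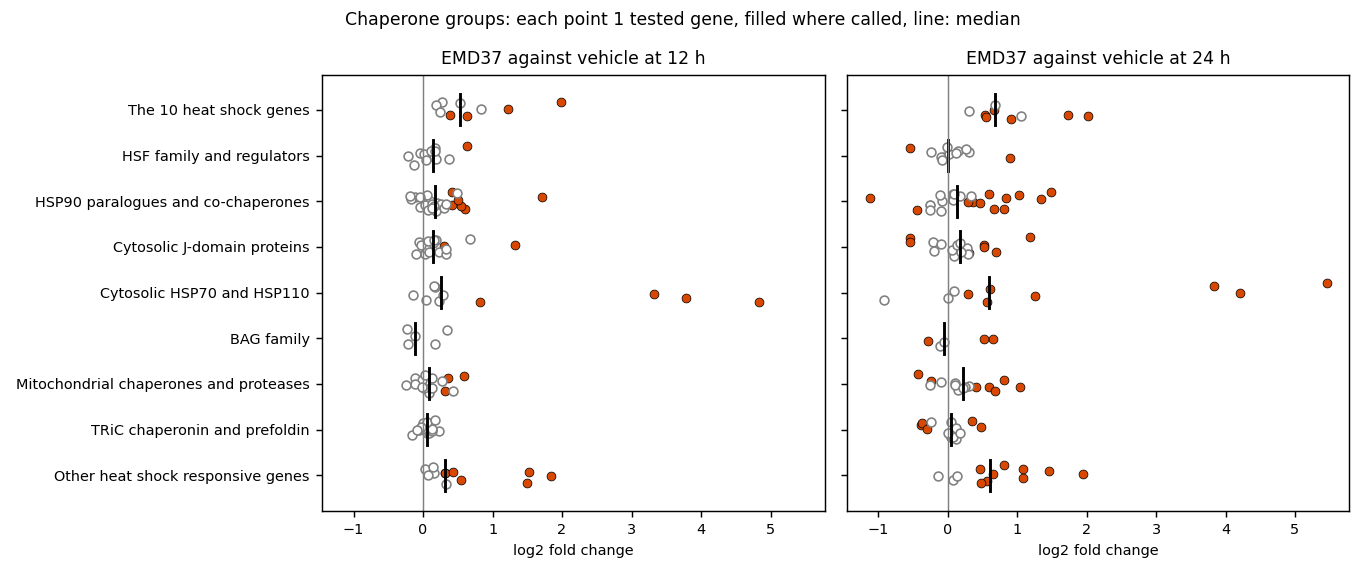
Log2 fold change of EMD37 over vehicle (horizontal axis) at 12 h, left, and 24 h, right, for the tested genes of each chaperone group, with 1 point a gene, filled where called at an adjusted p below 0.05, and a line at the median. HSPA6, HSPA1A and HSPA1B lie farthest to the right in both panels, and the TRiC and prefoldin genes lie near 0.

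Genes whose pattern was most like that of DNAJB1, by Pearson correlation of log2 CPM over the 8 libraries, were HSPA5 (r = 0.996), TRIB3 (0.995) and CXCL3 (0.995), among 2816 genes whose group means spanned at least 2-fold. For HSP90AA1 they included its pseudogene HSP90AA2P (0.989) and SAT1 (0.989), and for BAG3, which has few reads, they were ZNF165 (0.958), AC104134.1 (0.947) and AC007285.1 (0.941). These values describe likeness across 4 treated and 4 vehicle libraries that all share the same table and depth. HSPA5, the ER chaperone BiP, rose by log2 3.42 at 12 h and 2.81 at 24 h.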

How the data were processed

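RNA from 8 MDA-MB-231 libraries was sequenced. Per the labels' protocols 1 kit, TruSeq V2, made all libraries. The submitters' processing notes name hg38, STAR, FastQC and DESeq2. Which program counted reads, and with which strand setting, was not given in the sources used for this text. The authors deposited read counts per gene, which fed every test, and normalized values (signal), which were those counts divided by 1 size factor per library. This copy of the count table ended part-way through the gene IDs. For 6912 further genes the deposited signal gave whole reads for 55296 of 55296 values within 0.01, used in an alternative only, where 17863 genes were tested and edgeR called 853 higher and 492 lower at 12 h and 3443 and 3304 at 24 h.

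Genes were named with GENCODE 29. In edgeR 4.0.16 (R 4.3.3), 14850 genes passed filterByExpr (minimum count 10), and normalization factors (TMM) ran from 0.948 to 1.034. A quasi-likelihood model with 1 mean per group over all 8 libraries gave a biological coefficient of variation of 0.0733 with 4 residual degrees of freedom. Adjusted p-values are Benjamini-Hochberg over all tested genes, called below 0.05. CPM and RPKM use TMM-scaled library sizes, and RPKM the summed exon length of each gene. A count of 3 reads was the floor, for counting error only. DESeq2 1.42.0 was an alternative. The fit was tested on simulated data, where it missed some of the 2-fold and 4-fold changes; the pass mark of that test was lowered after its first run, with the fit unchanged. The members and lists were chosen with earlier results of these data known. List genes are named if called, at most 4 per list by smallest p at 24 h, plus those called against most of their list and the HSP70 partners, HSPE1 and pseudogenes. TRAP1 is named in addition, chosen after its values were seen. The 3 genes most like DNAJB1, BAG3 and HSP90AA1 were taken by correlation of log2 CPM. The values of 1 gene taken by these rules are not reported here. The TATAAA letters were set after the windows had been read.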

Additional observations from a re-analysis of the deposited data

Results flagged for a closer look

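The effect of EMD37 differed between 24 h and 12 h, by the interaction test of edgeR with Benjamini-Hochberg adjustment, for DNAJB4 and for 16 other named genes. Values are the log2 effect at 24 h minus that at 12 h. DNAJB4 differed by 0.79 (adjusted p = 0.000207), from 1.23 to 2.02.

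Among co-chaperones and regulators the difference was 1.07 for FNIP1, 0.73 for SIRT1, -0.40 for RPA1 and -0.94 for FKBP5. Among J-domain genes it was 0.85 for DNAJB2, 0.48 for DNAJA1 (adjusted p = 0.0134), -0.48 for DNAJC9 and -1.87 for DNAJB5 (adjusted p = 1.33e-05), which was higher at 12 h and lower at 24 h. Among HSP70 partners and mitochondrial chaperones it was 0.51 for HSPA1B, 0.44 for HSPH1, 0.49 for HSPA9 and 0.46 for HSPE1. JMJD6 differed by 0.76. Of the ER stress genes, 3 differed in the other direction, by -0.61 for HSPA5, -1.71 for HERPUD1 and -0.98 for DDIT3. Of all tested genes, 7.96% were called with a positive and 7.94% with a negative difference. Leaving out 1 library ended the calls of RPA1 and DNAJC9 (also by DESeq2, adjusted p = 0.0831 and 0.131), DNAJA1, HSPA1B, HSPH1, HSPA9, HSPE1 and HSPA5, with adjusted p-values from 0.0542 to 0.233, and did not end those of DNAJB4, FNIP1, SIRT1, FKBP5, DNAJB2, DNAJB5, JMJD6, HERPUD1 and DDIT3.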

How the results depend on the processing

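Of 531 members' log2 values recomputed under the alternatives, 507 kept their side of the threshold, and 14 gained and 10 lost a call. Of values called in the main fit or in the alternative, 0 reversed direction. The direction of values called in neither was not counted. Of 1804 values of the other named genes, 1648 kept their side of the threshold, 55 gained and 101 lost a call. The 12 h count of called members, 4, ran from 3 to 5 with 1 library left out and was 5 with only the 12 h libraries. The 24 h count, 6, ran from 6 to 7. The interaction count, 1, was 2 with no filter on low counts and ran from 1 to 5 when libraries were left out, 5 without vehicle 24 h A. The vehicle count, 1, was 0 with only its own libraries, 0 without both 24 h libraries that stood apart (chosen after seeing the data), and ran from 0 to 3. Leaving out 1 library can leave 1 in a group, whose spread is then assumed like that of the others.

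With the replicate letter as a replicate block, 4, 6, 1 and 1 members were called at 12 h, at 24 h, in the interaction and in vehicle. Same-letter libraries correlated in their deviations from -0.162 to 0.161 over 6 pairs, and the labels do not say what the letters share, so the libraries were not treated as pairs.

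Over all genes, 782 were higher and 510 lower at 12 h, and 1394 and 1109 with only the 12 h libraries. They ran from 387 (without EMD37 12 h B) to 1271 higher (without vehicle 24 h B) and from 106 to 958 lower with those same libraries left out. The interaction, 1182 and 1179, ran from 677 and 513 (without EMD37 12 h B) to 1615 and 1621 (without vehicle 24 h A). Vehicle, 408 and 482, ran from 34 and 55 (without vehicle 12 h A) to 1564 and 929 (without vehicle 24 h A), and was 42 and 83 with only its own libraries and 623 and 536 with no filter. DESeq2 called 305 lower at 12 h, 725 lower in the interaction and 239 higher in vehicle. The cause of these shifts was not tested. BAG3 and HSPB1 rest on few reads, which limits the precision of their values, and HSPB8 was not tested.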
